A study of Torulaspora delbrueckii with 17 samples.

Results

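In the interior of chromosomes 1 to 7 of the budding yeast Torulaspora delbrueckii, 147 sites carried an Orc1 peak in every one of 9 Orc1 ChIP-seq libraries. The sites were chosen by peak presence. Orc1 peaks whose midpoint lay at least 100 kb from both chromosome ends were merged where they overlapped by at least 1 bp, which gave 273 sites, and those with a peak from all 9 lists were kept. They are 147 of 273 interior sites, 53.8%, and of 1069 merged Orc1 sites on all chromosomes. Since the choice rests on the Orc1 peak lists, the number of lists, the fold and the width of these peaks are given as a description, with no test of the sites against other regions.

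The origin recognition complex binds DNA at replication origins and loads the MCM helicase there before S phase. Orc1 is its largest subunit and carries a BAH domain, a module that binds nucleosomes. In Saccharomyces cerevisiae the same complex also binds silencers, where proteins of the Sir1 family join it. Kos3 belongs to the Sir1-related family, and Sir2 is a histone deacetylase that acts in silent chromatin. Whether a site fires as an origin was not measured here, so the sites are called Orc1 sites throughout.

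All libraries came from cells grown in YPD at 30 °C and cross-linked with formaldehyde. Gene roles given here are those known from S. cerevisiae. Orc1 carried a MYC tag in all 9 libraries, which came from 7 strains. There were 2 libraries of the orc1bah allele, named for the BAH domain, from 1 strain that also carried Kos3-V5. The orc1P179A allele was represented by 2 libraries from 2 strains, both with Kos3-V5. The sir2 mutant had 2 libraries from 1 strain and the kos3 mutant 1 library, in both cases without the V5 tag per the labels. The 2 wild-type libraries came from different strains, the first without and the second with Kos3-V5. Kos3-V5 was itself precipitated in 2 orc1bah, 2 orc1P179A and 2 wild-type libraries. The series calls its libraries technical replicates, so the spread between libraries of 1 strain is technical.

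The file names give 1 input library for the sir2, kos3 and first wild-type lists and another for the orc1bah, orc1P179A and second wild-type lists. The peak names inside the second set of lists carry an input number other than the file names do, but they divide the lists in the same way. This grouping by input is the same as the grouping by the V5 tag on Kos3, and input and tag cannot be told apart. All Orc1 lists together held between 259 and 671 peaks each. Of these, 161 to 201 lay in the interior. The depth of each library is unknown, since the files hold peaks and no counts. Per the labels both inputs came from a strain without tags.

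The constant sites took most of the interior peaks of every list. They held 88.1% and 84.2% of the interior peaks in orc1bah, 92.5% and 91.6% in orc1P179A, 84.7% and 81.2% in sir2, 77.1% in kos3, and 81.0% and 88.2% in wild type. The lowest share belonged to the kos3 library, which also had the most sites seen in no other list, 25. The other 126 interior sites were mostly found in few lists. A single list gave 86 of them, 2 lists gave 16, and only 7 were found in 7 or 8 lists.

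**Figure D1:**
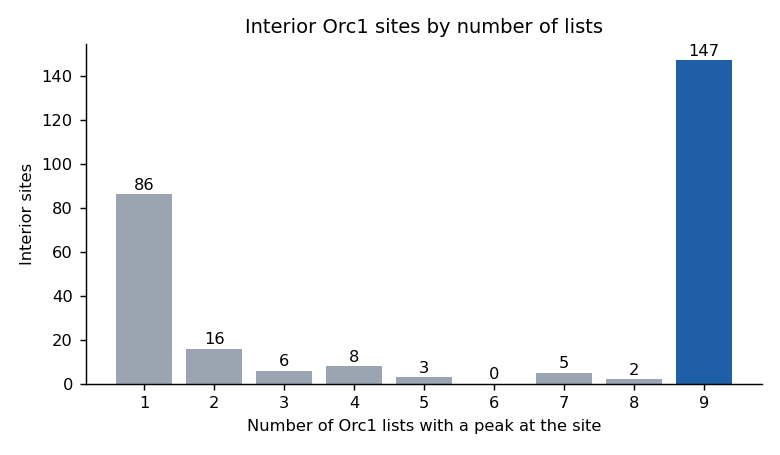
Number of interior Orc1 sites (y axis) by the number of the 9 Orc1 lists with a peak at the site (x axis). The 147 sites found in all 9 lists and the 86 found in 1 list make up most of the 273.

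Peak height set the constant sites apart from the others as a description. The fold enrichment is the authors' ratio of immunoprecipitate over background at the summit. Its mean over the lists with a peak at the site had a median of 8.69 over the constant sites and 2.14 over the other interior sites. Lists without a peak do not enter, so the mean covers 9 lists at a constant site and fewer at the others. Over the constant sites the mean fold ran from 2.12 to 20.5. The smallest fold of any constant site in any list was 1.57 and the largest 28.5. At 136 of the 147 sites the −log10 q-value was at least 10 in every list.

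Just outside the choice lay the 7 sites found in 7 or 8 lists, with mean folds over those lists from 2.17 to 6.24. The strongest of them, on chromosome 1 at 758229 to 758971 in ECM11, was missing from the first orc1bah and the first orc1P179A list. Another pair, on chromosome 4 at 186464 to 186885 between CAR2 and DIF1 and at 217035 to 217458 between CYB2 and a tRNA gene, was missing from both sir2 lists and from no other. Their mean folds, 2.29 and 2.17, were the lowest of the 7, and the sites found in 1 list had a median of 2.05. Both sir2 lists came from 1 strain. A chromosome 2 site between TIM18 and RNH1, from base 610962 to 611829, was absent from both orc1bah lists and present in the rest. At the limit set on distance, a site on chromosome 3 at 1190565 to 1192316 was the nearest to an end, at 100.4 kb. One more site found in all 9 lists, on chromosome 1 at 91075 to 92831 with a mean fold of 9.66, lay 91.95 kb from an end and was left out.

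All 7 chromosomes carried constant sites. Chromosome 1 had 23 sites, chromosome 2 had 24, chromosome 3 had 26, chromosomes 4 and 6 had 20 each, chromosome 5 had 18 and chromosome 7 had 16. Per 100 kb of interior the density ran from 1.89 on chromosome 1 to 2.38 on chromosome 3. Together the sites spanned 198 kb, 2.84% of the 6981.5 kb of interior.

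Neighbouring constant sites lay a median of 49.0 kb apart, measured between their median summits. The 140 intervals had quartiles of 24.2 and 65.1 kb and a mean of 46.8 kb with an SD of 26.6 kb. Intervals from 40 to 80 kb were the most frequent, with 74 of 140. Closer spacing was also present, since 26 intervals were shorter than 20 kb and 16 were shorter than 10 kb. By chromosome, the median spacing ran from 35.8 kb on chromosome 3 to 61.0 kb on chromosome 1.

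**Figure D2:**
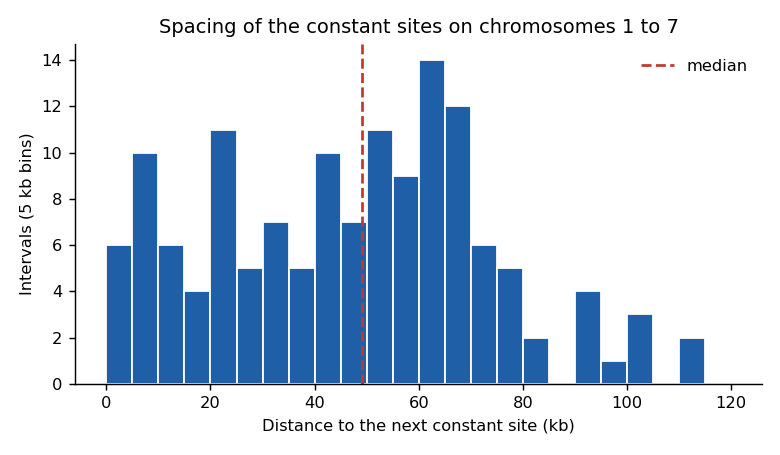
Number of intervals (y axis, 5 kb bins) by the distance in kb from a constant site to the next on the same chromosome (x axis), with the median of 49.0 kb as a dashed line. Intervals are spread from 1.08 to 110.4 kb, with most between 40 and 80 kb and a group under 10 kb.

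The longest intervals exceeded 100 kb in 5 places. The longest, 110.4 kb, ran from a site on chromosome 3 at 809248 to 810398, between TAO3 and MET18, to the next site on that chromosome. An interval of the same length began on chromosome 5 at 573021 to 574357, between CPR5, a cyclophilin gene, and RSC3, which encodes a subunit of the RSC chromatin remodeller. The third, 100.8 kb, began on chromosome 1 at 688530 to 690151, between RAD30, the gene of DNA polymerase eta, and a tRNA gene. Of the 12 intervals longer than 80 kb, 7 held at least 1 of the other interior sites.

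At the short end, 4 neighbouring pairs lay less than 2 kb apart. On chromosome 3, a site in FMP33 at 645096 to 645740 and a site between a tRNA gene and JJJ2 at 646156 to 647118 had median summits 1082 bp apart. Their mean folds were 2.73 and 7.41. On chromosome 4, sites at 763460 to 764517 and at 764518 to 765490 touched without overlapping. Both lay in the same interval between ECM15 and TDEL0D04170, with summits 1220 bp apart and mean folds of 7.48 and 7.06. On chromosome 5, a site between HIM1 and a tRNA gene at 536857 to 538396 and a site in PCL5, a cyclin gene, at 538704 to 539588 were 1444 bp apart, with mean folds of 10.5 and 2.92. The remaining pair flanked HAT1, a histone acetyltransferase gene, on chromosome 3, with summits 1556 bp apart and mean folds of 6.35 and 6.41. In each pair all 9 lists resolved separate peaks.

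The strongest site by mean rank lay on chromosome 5 at 929869 to 932451, between CIR1 and SER2, which encodes the phosphoserine phosphatase of serine synthesis. Its fold was 22.8 and 23.9 in orc1bah, 18.6 and 18.4 in orc1P179A, 20.7 and 21.3 in sir2, 18.8 in kos3, and 20.2 and 19.6 in wild type. It ranked between 1 and 7 among the 147 sites in every list. It also had the largest median width, 1613 bp, and the smallest summit spread, with all 9 summits within 15 bp.

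The next by mean rank lay on chromosome 2, from base 1169848 to 1171007, with a tRNA gene on one side and MRPL3, a gene of the mitochondrial ribosome, on the other. Its ranks ran only from 3 to 7, the narrowest range of any constant site. The site on chromosome 3 at 411146 to 413299, between COA4 and SEC31, a gene of the COPII vesicle coat, ranked from 3 to 11. The site on chromosome 2 at 465708 to 468072, between CYT1, the gene of cytochrome c1, and YNG1, ranked from 2 to 18, lowest in the sir2 lists.

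The fifth of these strong sites lay on chromosome 2 at 871677 to 873126, between NDT80, a meiotic transcription factor gene, and KRE33. Its fold was 13.4 and 14.3 in orc1bah, 14.4 and 14.5 in orc1P179A, 27.0 and 28.5 in sir2, 22.9 in kos3, and 23.8 and 24.9 in wild type. It ranked first in all 5 lists with unaltered Orc1. Its ranks in the allele lists were 18 and 37 (orc1bah) and 9 and 7 (orc1P179A). Within the second input alone, the 4 lists with an allele stood at a mean rank of 17.8 and the wild-type list at 1.

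Only 2 sites were among the 10 strongest of every list, and 25 were among the 10 strongest of at least 1 list. The rank of a site by fold ranged over a median of 38 places across the 9 lists, from 4 to 106 places.

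The weakest constant sites ranked low everywhere. The lowest lay on chromosome 6 at 529775 to 530433, between TDEL0F02920 and RTS3. Its folds were 2.21 and 2.79 in orc1bah, 1.57 and 2.22 in orc1P179A, 1.70 and 2.01 in sir2, 2.18 in kos3, and 1.99 and 2.40 in wild type. The other 4 were sites between NCW2 and NMT1 on chromosome 3, in FMP33 and in TDEL0C02900 on chromosome 3, and in PCL5 on chromosome 5, with mean folds from 2.32 to 2.92. All 5 stayed within ranks 129 to 147 in each list.

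Peaks at the constant sites were about 1 kb wide. The median width of a site over the 9 lists had a median of 952 bp over sites, with quartiles of 690 and 1158 bp and a range from 341 to 1613 bp. At the other interior sites the median was 249.5 bp. The span from the first to the last base covered by any list had a median of 1313 bp and reached 3249 bp. Within a site the widest list was a median of 1.65 times the narrowest. Besides the CIR1 and SER2 site, the widest were the chromosome 3 site between TDEL0C06480 and KCC4, a kinase gene, and a chromosome 7 site at 613517 to 615590 in REC114, a gene of meiotic recombination, each with 1576 bp. The narrowest were the weakest site beside RTS3 with 341 bp, a chromosome 6 site at 401268 to 401753 between EFM5 and ERG26 with 353 bp, and a chromosome 5 site at 683526 to 684339 between a tRNA gene and NUP192, a nuclear pore gene, with 373 bp.

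Stronger sites were wider. Across the 147 sites, Spearman's rho of mean fold and median width was 0.70, and within single lists rho of fold and width ran from 0.56 to 0.70. Fold and width come from the same reads of the same peak, so this is a description.

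The median width per library was 873 and 937 bp in orc1bah, 891 and 949 bp in orc1P179A, 1038 and 1048 bp in sir2, 962 bp in kos3, and 992 and 949 bp in wild type. The 4 libraries with an orc1 allele averaged 912 ± 36.3 bp and the 5 with unaltered Orc1 998 ± 44.2 bp (SD over libraries, n = 4 and 5), and the groups met at 949 bp. The difference was −85.3 bp (exact permutation test over libraries, two-sided, p = 0.0317, adjusted by Benjamini-Hochberg over 2 differences p = 0.0635). It did not pass 0.05 after adjustment. Libraries of 1 strain are technical replicates, so a p over libraries counts some strains more than once. With 1 mean per strain the 3 allele strains averaged 915 ± 30.3 bp and the 4 others 986.5 ± 41.8 bp (SD), a difference of −71.5 bp (exact permutation, two-sided, p = 0.114, adjusted p = 0.229, where the smallest possible p is 0.0571). The p over libraries counts the smaller tail of the relabellings on both sides. Counting relabellings by absolute difference, the convention computed first, gave p = 0.0238 and adjusted p = 0.0476 (exact permutation), which passes; the reported convention was taken after both values had been seen, so the call rests on that choice. It also passed with a −log10 q of at least 10, at −93.5 bp, and with distance limits of 50 or 150 kb, at −97.0 and −90.4 bp (same exact permutation test, adjusted p = 0.0317 each, range over the alternatives 0.0317 to 0.8).

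The same libraries separated fully by input. All 4 lists of the first input lay from 962 to 1048 bp, and all 5 of the second from 873 to 949 bp. Within the second input the allele libraries averaged 912 bp and the single wild-type library 949 bp, a difference of −36.5 bp, and 4 libraries against 1 cannot give a two-sided p below 0.4 (exact permutation). The part of the input in the width difference was not tested apart from this. With 2 libraries a group, the mutants are given by value only: 905 ± 45.3 bp in orc1bah, 920 ± 41.0 bp in orc1P179A, 1043 ± 7.07 bp in sir2 and 970.5 ± 30.4 bp in wild type (SD over 2 libraries each, from 1 strain in orc1bah and sir2, where it is technical spread, and from 2 strains in orc1P179A and wild type).

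**Figure D3:**
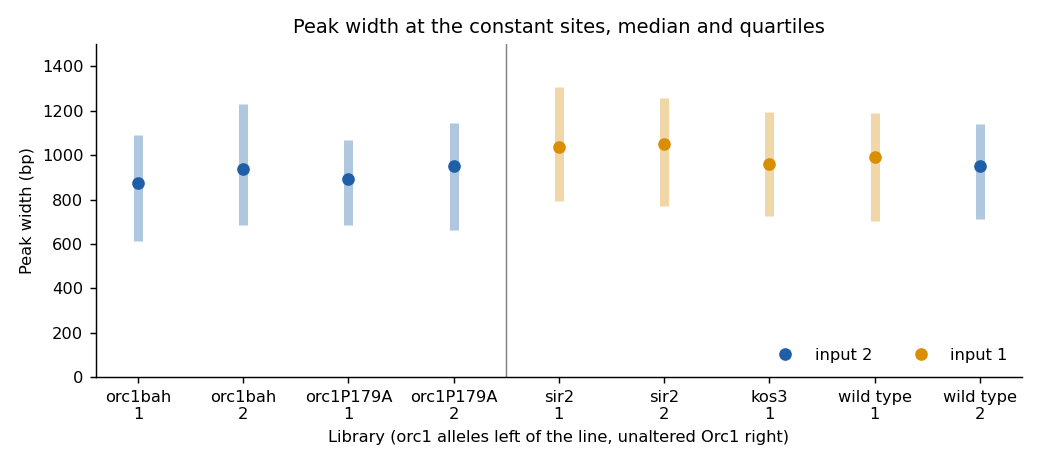
Peak width in bp at the 147 constant sites in each library, with the median as a point and the quartiles as a bar, coloured by input library. Medians run from 873 to 949 bp with an orc1 allele and from 949 to 1048 bp with unaltered Orc1, and the only second-input library on the right, wild type 2, lies at 949 bp.

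The 9 lists placed their summits close together. The range of the 9 summits, 1 a list, had a median of 85 bp and quartiles of 47 and 119.5 bp. It was at most 50 bp at 40 sites, at most 100 bp at 93 and at most 200 bp at 142 of the 147 sites. A library's summit lay a median of 9 to 17 bp from the median summit of its site. At 115 sites every list had a single peak. At the other 32, at least 1 list split the site into several peaks, and the summit range was not larger there, with a median of 73.5 bp against 88 bp.

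Summits agreed best at strong sites. Among the 37 sites with the best mean rank the median summit range was 51 bp and the largest 148 bp. Among the 37 sites with the lowest mean rank the median was 131 bp and the largest 394 bp. Spearman's rho of mean fold and summit range across the 147 sites was −0.52.

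**Figure D4:**
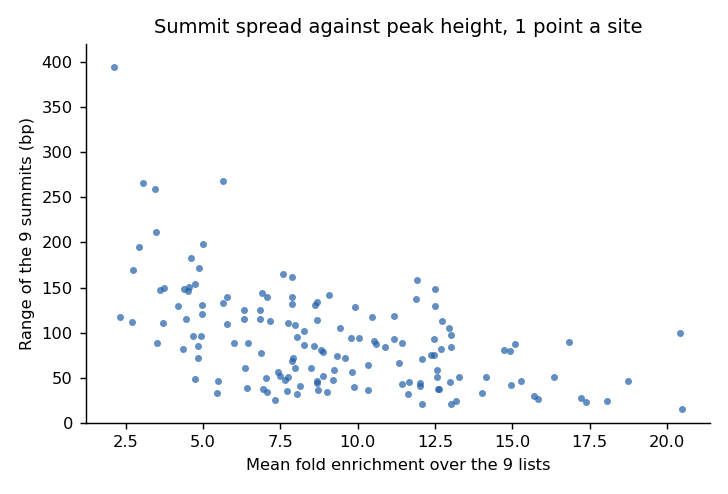
Range in bp of the 9 summits of a site (y axis) against its mean fold enrichment over the 9 lists (x axis), 1 point for each of the 147 constant sites. The 37 sites with the best mean rank reach at most 148 bp, and the 5 ranges over 200 bp belong to sites with a mean fold under 6.

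The 5 sites listed as tightest, without the CYT1 and YNG1 site that tied with the last at 24 bp, had all summits within 24 bp. After the CIR1 and SER2 site these were a chromosome 1 site between RAD30 and a tRNA gene and a chromosome 5 site at 942675 to 944089 between SLI1 and FRE8, each with 21 bp, the COA4 and SEC31 site with 23 bp, and a chromosome 1 site at 483261 to 484370 between NAM7, a gene of nonsense-mediated RNA decay, and YJU3 with 24 bp. The loosest was the weak site beside RTS3 with 394 bp. It was followed by a site between MPT5 and TDEL0F00980 with 268 bp, a site between TDEL0F04250 and TDEL0F04260 with 266 bp, both on chromosome 6, a chromosome 7 site between NUP84 and RPL9A with 259 bp, and a chromosome 2 site between tRNA genes with 212 bp.

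The distance of a library's summits from the site medians did not pass the test between libraries with and without an orc1 allele. The median offset was 17 and 14 bp in orc1bah, 9 and 15 bp in orc1P179A, 15 and 14 bp in sir2, 15 bp in kos3, and 17 and 13 bp in wild type. The 4 allele libraries averaged 13.75 ± 3.40 bp and the 5 others 14.8 ± 1.48 bp (SD, n = 4 and 5). The difference of −1.05 bp had p = 0.698 before and after adjustment (exact permutation test over libraries, two-sided), and it changed sign when any 1 of the 4 allele libraries was left out, reaching 2.23 bp.

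At some sites the summit itself stood elsewhere in the allele libraries. The 4 summits with an orc1 allele and the 5 with unaltered Orc1 did not overlap at 15 of the 147 sites, 10.2%. Between the 5 lists of the second and the 4 of the first input, the summits did not overlap at 2 sites, 1.36%, both of which were among these 15. These splits differ only in the side on which the second wild-type list stands. The difference between the counts therefore rests on that list alone. The 15 sites are named after their values were seen. The mean summits differed there by 15.7 to 98.6 bp, with a median of 56.1 bp, against a median of 18.3 bp over all constant sites. In 11 of the 15 the summit with an allele lay at the lower coordinate and in 4 at the higher one.

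The largest of these differences was at REC114, where the allele summits differed by −98.6 bp on average. Relative to the median summit at 614545 on chromosome 7, they stood at −82 and −35 bp in orc1bah, −13 and −70 bp in orc1P179A, 80 and 78 bp in sir2, 60 bp in kos3, and 0 and 25 bp in wild type. At the NDT80 and KRE33 site they stood at −89 and −78 bp in orc1bah, −61 and −11 bp in orc1P179A, 3 and 0 bp in sir2, 10 bp in kos3, and 10 and 11 bp in wild type. The 5 lists with unaltered Orc1 lay within 11 bp of each other there, and each allele summit lay below them. Within the second input, the mean summit of the allele libraries minus that of the wild-type library was −70.75 bp at this site and −75 bp at REC114.

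Similar differences were seen between a tRNA gene and LEC1 on chromosome 3, with −73.8 bp, and between TDEL0C06480 and KCC4, with −70.3 bp. The other sites of this kind lay between EMG1 and LCD1 and between PRP9 and DBP10, with −89.55 and −33.0 bp, between TOM1 and TDEL0A04420, in SSP1, in TDEL0E02370, between HOM2 and RKM5, between COA6 and HSP30, between SFP1 and DUS3, beside tRNA genes on chromosome 2 in 2 cases, and at CYT1 and YNG1, where the difference was 15.7 bp. The 2 sites whose summits also did not overlap between the inputs were those at EMG1 and LCD1 and at CYT1 and YNG1. Within the second input, the mean summit of the allele libraries minus that of the wild-type library was −22.75 bp at the first and 8.5 bp at the second. Of the 15 sites, 2 others were also among those whose ranks by fold did not overlap, given next.

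These counts and those of ranks were added after the data had been seen. Ranks by fold within the 147 sites can be set side by side, since every list ranks the same sites. The ranks did not overlap between the 4 lists with an orc1 allele and the 5 with unaltered Orc1 at 27 of 147 sites, 18.4%. At 12 of these the allele lists ranked the site higher and at 15 lower. Between the second and the first input the ranks did not overlap at 31 sites, 21.1%, and 13 sites are in both counts. Here too the splits differ only in the side of the second wild-type list.

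Spearman's rho of the folds across the 147 sites differed between pairs of lists by input and genotype together. The 3 same-strain or same-allele pairs, orc1bah, orc1P179A and sir2, had rho from 0.95 to 0.98. The wild-type lists, called against different inputs, had 0.89. Pairs of different genotypes ran from 0.86 to 0.95 with the same input and from 0.66 to 0.88 with different inputs. Most of the latter also set an orc1 allele against unaltered Orc1, so input, V5 tag and allele cannot be told apart in them. The second wild-type list had 0.78 and 0.76 with the sir2 lists and 0.88 with kos3, all of the other input. With the allele lists of its own input it had 0.88 to 0.94. Lists with the same input share that library.

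The sites ranked higher with an allele were led by a chromosome 1 site at 515617 to 516273, between MET14, a sulfate assimilation gene, and VPS1, a dynamin-like gene. Its ranks were 26 and 38 in orc1bah, 45 and 48 in orc1P179A, 124 and 120 in sir2, 79 in kos3, and 103 and 81 in wild type. The chromosome 4 site at 784757 to 785863, between SOK1 and the histone H4 gene HHF1, had ranks of 54 and 55 in orc1bah, 67 and 63 in orc1P179A, 127 and 109 in sir2, 118 in kos3, and 113 and 104 in wild type. Its folds were 9.93 and 12.3 in orc1bah and 8.72 and 8.92 in orc1P179A, against 5.43 and 6.89 in wild type. The other 3 lay between TDEL0E04100 and DNM1, a mitochondrial fission gene, on chromosome 5, and between TDEL0F04900 and ACS2, an acetyl-CoA synthetase gene, and between CLD1 and a tRNA gene on chromosome 6. Their mean ranks with an allele were 60, 45.4 and 16.2, against 119, 101 and 61 with unaltered Orc1. In the second wild-type list the sites beside ACS2 and DNM1 ranked 56 and 80, against 37 to 52.5 and 46 to 73 in the allele lists. At all of these higher-ranked sites but the one beside VPS1, the ranks also did not overlap between the first and the second input. The part of the input in these rank differences was not tested.

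The sites ranked lower with an allele were led by the chromosome 6 site at 230188 to 231370, between VAM3 and POL1, the gene of the catalytic subunit of DNA polymerase alpha. Its ranks were 105 and 109 in orc1bah, 75 and 105 in orc1P179A, 3 and 7 in sir2, 31 in kos3, and 42 and 53 in wild type. The site beside KCC4 ranked 100 and 115 in orc1bah, 104 and 87 in orc1P179A, 28 and 24 in sir2, 23 in kos3, and 18 and 62 in wild type. The site on chromosome 2 at 511714 to 512881, between GLO4 and PCH2, a meiotic checkpoint gene, was near the bottom with an allele. Its folds there were 2.22 and 2.07 in orc1bah and 2.44 and 2.57 in orc1P179A, against 8.73 and 9.24 in sir2, 6.02 in kos3, and 5.01 and 5.17 in wild type. The remaining sites were in PRM3, a nuclear fusion gene, on chromosome 7, with mean ranks of 109 and 58.2, and the site beside LEC1, with 107 and 62.6. At the site beside LEC1 the ranks with and without an allele overlapped, with 88 in the second orc1P179A list and 94 in the second wild-type list. Between the first and the second input the ranks did not overlap at any of these lower-ranked sites, the one beside LEC1 included.

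At the 15 sites ranked lower without overlap, single peaks had a median width of 769 bp in the allele libraries and 957 bp in the others. At the 12 ranked higher these medians were 926.5 and 966 bp. The sites were chosen on fold in the same lists, and fold and width go together within a list, so these widths are a description. The median difference between summits was 28.2 bp at the first and 9.22 bp at the second.

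**Figure D5:**
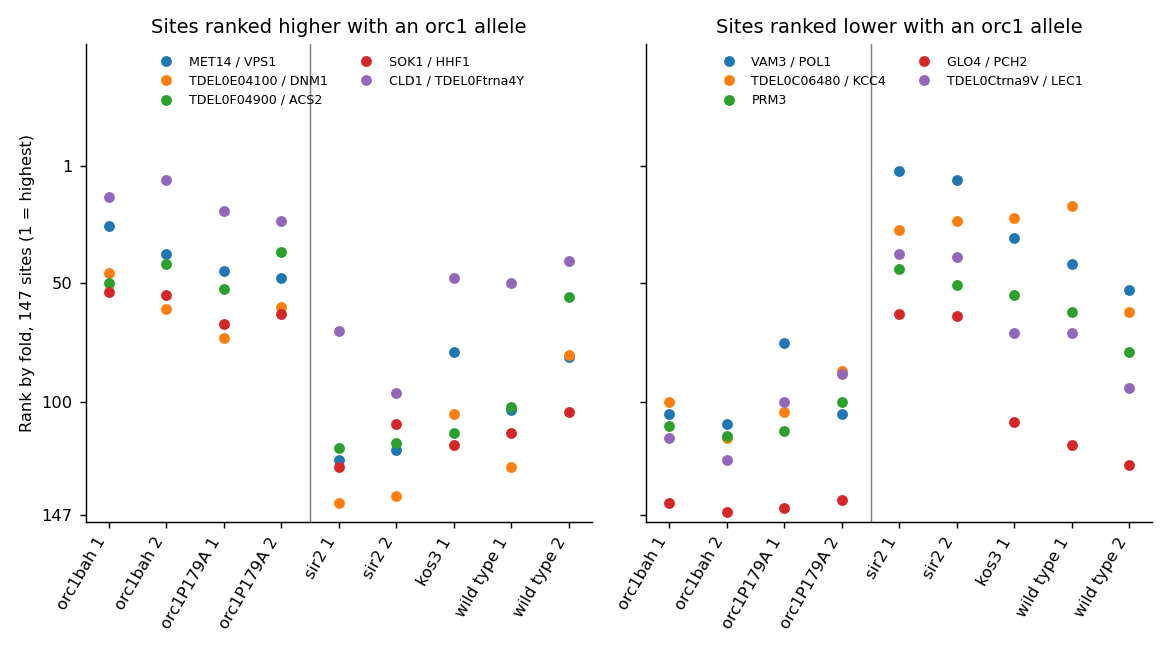
Rank by fold among the 147 constant sites (y axis, 1 is the strongest) in each of the 9 Orc1 libraries (x axis), for the 5 sites whose mean rank was most higher (left) and most lower (right) with an orc1 allele. Libraries with an allele stand left of the grey line. The ranks of the 2 sides overlap for 1 of the 10 sites, the one beside LEC1, and wild type 2 lies nearest to the allele libraries at 9 of the 10.

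Constant sites lay mostly between genes, a property the choice did not use. The median summit was outside annotated genes at 117 of 147 sites, 79.6% (Wilson 95% interval 72.4% to 85.3%). The same held for 63% of all 273 interior sites, for 55 of the other 126 sites, 43.7% (35.3% to 52.4%), and for 18.3% of interior bases. By mean rank, the share was 83.8% in the 37 strongest sites, 89.2% in the next 37, 77.8% in the next 36 and 67.6% in the 37 weakest. Counting protein-coding genes alone also gave 117 sites.

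Intergenic intervals with a constant site were longer than the intergenic intervals of the interior as a whole. A longer interval holds a summit more readily by its length alone, and no background weighted by length is given, so this is a description. Their median length was 553 bp, against 218 bp over the 3999 intergenic intervals of the interior, and 17.1% against 4.38% were longer than 1000 bp. The shortest interval with a summit was 72 bp and the longest 4475 bp. Summits outside genes lay a median of 151 bp from the nearest gene edge. Of the 30 summits inside genes, 28 lay within 200 bp of an edge of that gene, with a median of 42.5 bp. The exceptions, named after their values were seen, were in REC114 and in SSP1, 349 and 585 bp from the nearest edge.

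The comparison with tRNA genes was also added after the data had been seen. A tRNA gene flanked the summit at 32 of the 117 constant sites outside genes, 27.4% (Wilson 95% interval 20.1% to 36.1%). Over all intergenic intervals of the interior the share was 7.65%, and 9.93% of intergenic bases lay in intervals with a tRNA gene on a side. Among the other interior sites outside genes it was 11 of 55, 20% (11.6% to 32.4%), and the intervals of these shares overlap. Constant sites beside a tRNA gene had a median mean fold of 8.96, and those outside genes with none on either side 8.82. Their median summit ranges were 70.5 and 81 bp, against 118.5 bp for the summits inside genes.

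Among 35 histone and replication-initiation genes, 33 lie in the interior, and 4 of these were inside or next to a constant site, 12.1% (Wilson 95% interval 4.82% to 27.3%). Of all 4040 interior genes 7.85% were, a value within that interval. The 4 were HHF1, given above, MCM3, MCM7 and ORC5. The site between LIN1 and ORC5, which encodes another subunit of the origin recognition complex, lay on chromosome 3 at 1091923 to 1093134. It had folds of 16.0 and 18.9 in orc1bah, 14.1 and 13.6 in orc1P179A, 12.2 and 15.9 in sir2, 11.6 in kos3, and 11.1 and 13.9 in wild type. The site between MCM3, a helicase subunit gene, and PET112 lay on chromosome 3 at 456306 to 457582 and ranked from 22 to 55. The site next to MCM7, of the same helicase, had its summit in RGL1 on chromosome 2 at 558417 to 559593, and its mean fold was 4.75.

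Kos3 peaks were rare at the constant sites. No site had a peak in both wild-type Kos3 lists, 0 of 147, which allows a share of up to 2.04% by a limit of 3 counts and 2.55% by the Wilson interval, counting error alone, where 1.47% of all interior Orc1 sites had one. This 0 depends on the choice of sites, which also asks for an Orc1 peak in the sir2, kos3 and allele lists. Among the 161 sites with a peak in both wild-type Orc1 lists, whatever the other lists held, the share was 2.48%. A peak in any of the 6 Kos3 lists overlapped 3 constant sites, 2.04% (Wilson 95% interval 0.697% to 5.83%), where 4.76% of all interior sites did and 10 of the other 126 sites, 7.94% (4.37% to 14.0%), did. Each of the 3 came from a single list. By list the count was 0 and 0 in orc1bah, 1 and 0 in orc1P179A, and 1 and 1 in wild type. Interior Kos3 peaks were few in all lists, with 8 and 14 in orc1bah, 6 and 7 in orc1P179A, and 14 in each wild-type list. On all chromosomes these lists held 33 and 50, 725 and 726, and 105 and 119 peaks, in the same order. Both wild-type Kos3 lists came from 1 strain, so agreement between them is technical. The nearest wild-type Kos3 summit lay a median of 121 kb from a constant site.

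The first of the 3 sites was the NDT80 and KRE33 site, with a Kos3 fold of 1.73 in the first wild-type list and the Kos3 summit 87 bp from the median Orc1 summit. The second lay on chromosome 7 at 178857 to 180538, between SPC97, a spindle pole gene, and PUP2, a proteasome gene, with a Kos3 fold of 2.17 in the second wild-type list and a summit 175 bp away. The third was the PRM3 site, with a Kos3 fold of 2.06 in the first orc1P179A list and a summit 876 bp away. All 3 sites had a lower mean rank by Orc1 fold in the lists with an orc1 allele than in the others, as had 74 of all 147 sites, and a site that ranks first everywhere else can only rank the same or lower. With an allele and with unaltered Orc1, in this order, the mean ranks were 17.8 and 1 at NDT80, 23.2 and 10 at SPC97, and 109 and 58.2 at PRM3. At SPC97 the ranks of the allele lists, from 12 to 33, overlapped those of the others, from 2 to 22.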

How the data were processed

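ChIP-seq peak lists of 9 Orc1-MYC and 6 Kos3-V5 libraries were used, 1 deposited list per library. The submitters' processing notes name Bowtie2 2.3.4.1 and MACS2 2.2.7.1. The genome build and read filters are not given in the sources used here, and peak names in the deposited lists hold the word subsample. Each deposited list gave a fold enrichment (a linear ratio), an integer score and the −log10 of a p-value and of a q-value per peak, all of them the authors' values. The score was not used. In 3 lists the peak names carry another replicate number than the label, and the labels were followed.

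Coordinates are 1-based. Genes were placed with 5174 RefSeq entries of assembly ASM24337v1, which give no strand. For chromosomes 1 to 7, wild-type Orc1 summits (−log10 q from 10 upwards) lay outside genes of their own chromosome in 68.8% to 87.3%, against at most 62.1% for the genes of another chromosome. The share of summits outside genes is also given as a result, so this comparison is not independent of that result.

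A site's summit in a list is that of the peak with the highest −log10 p. Ranks are by fold within the 147 sites. Libraries with an orc1 allele (4) and with unaltered Orc1 (5) were compared by exact permutation tests, Benjamini-Hochberg adjusted over 2 differences; these p-values measure only the spread between libraries, in part technical, and a version with 1 mean per strain was added after seeing the data. Intervals are Wilson 95% intervals and cover counting error. Named sites are the 5 highest and lowest by mean rank, by summit range and by rank difference, the 3 extremes of width and spacing, and those beside a Kos3 peak or a listed gene. The members and lists were chosen with earlier results of these data known. Python 3.11.15, pandas 2.3.3, NumPy 2.4.6 and SciPy 1.17.1 were used, and the merging and test code was tested on simulated data.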

Additional observations from a re-analysis of the deposited data

How the results depend on the processing

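The number of constant sites ran from 131 to 161 over 19 alternatives, and the share outside genes from 74.5% to 80.9%. The share with a Kos3 peak in both wild-type lists ran from 0% to 2.48%, above the limit of 2.04% from 3 counts and below the Wilson limit of 2.55%. The median width was 1018 bp when peaks needed a −log10 q of 10 or more, and 1013 bp from 50 kb inwards. The median spacing was 43.3 kb with the wild-type libraries alone. The median summit range was 81.5 bp under that limit on q, 23 bp with the wild-type libraries alone and, in alternatives chosen after seeing the data, 49 bp and 57.5 bp with the lists of the first and the second input alone, where fewer summits enter; with each library left out it ran from 77.5 to 84 bp.

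The width difference kept its sign in all 20 alternatives, from −97.5 to −36.5 bp, and passed 0.05 in 4. These were −93.5 bp (−log10 q of 10 or more), −97 bp (50 kb) and −90.4 bp (150 kb), and, at −85.3 bp, the two-sided p by absolute difference (exact permutation, adjusted p = 0.0476), an alternative added after both values had been seen. The offset difference was 0.75 bp within the second input, and from −3.25 to 2.23 bp with each library left out. With the replicate block, the width difference of −85.3 bp had p = 0.0667, adjusted p = 0.133, and the offset difference of −1.05 bp had p = 0.8 (exact permutation tests within replicate numbers, 60 relabellings). Deviations of same-numbered libraries had correlations from −0.292 to 0.106 between groups, so the numbers were not taken to pair the libraries. Depth is unknown, and with 4 and 5 libraries no two-sided p falls below 0.0159 (exact permutation).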

Other observations

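Some sites named above for other reasons stood apart in the sir2 lists. The site between NAM7 and YJU3 ranked 67 and 67 by fold in sir2, against 8 in kos3 and 10 and 8 in wild type, and its folds were 8.51 and 9.02 in sir2, against 18.1 in kos3 and 17.1 and 19.3 in wild type. In the allele lists it ranked 44 and 46 in orc1bah and 38 and 38 in orc1P179A, between these. The site between CYT1 and YNG1 ranked 18 and 16 in sir2, against 4 in kos3 and 4 and 2 in wild type. Its ranks were 9 and 9 in orc1bah and 3 and 4 in orc1P179A. The site next to MCM7 went the other way, with ranks of 84 and 89 in sir2, against 132 in kos3 and 126 and 135 in wild type. In the allele lists it ranked 130 and 136 in orc1bah and 134 and 130 in orc1P179A. The site between VAM3 and POL1 likewise ranked 3 and 7 in sir2, against 31 in kos3 and 42 and 53 in wild type. The sir2, kos3 and first wild-type lists share 1 input, so these values also hold within that input. They were noticed after the values were seen and were not tested.

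Many of the other interior sites lay close to constant ones. Of the 126, 41 had their median summit within 2 kb of that of a constant site, and the median distance was 4.84 kb. A wild-type Kos3 summit lay within 5 kb of 3 constant sites.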
